A study of Mus musculus with 6 samples.

Results

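Dppa2, Dppa4, Dppa5a, Utf1, Fbxo15, Gdf3 and L1td1 are transcripts that mark embryonic stem cells but lie outside the core network of transcription factors, and they were followed here as a group of 7 genes of the 51912 in the deposited table. They were taken by symbol, and each symbol matched 1 gene identifier. The choice was made with earlier results of these data known. Messenger RNA had been sequenced from R1 cells, an established mouse embryonic stem cell line. All cells were first kept in 2iLIF, a medium that holds the naive state with inhibitors of MEK and GSK3 and the cytokine LIF, and were then moved to serum-free N2B27 with FGF2 at 100 ng/ml. The 2 groups are FGF2 for 24 h and FGF2 for 48 h, with 3 replicates each, and no allele or other agent distinguishes them. Cells in the starting medium and cells in N2B27 without FGF2 were not analysed here, so the values do not separate FGF2 from the change of medium or from time in culture. The labels do not say whether replicates were separate cultures, so p-values measure only the spread between these libraries, which may be technical.

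Naive embryonic stem cells resemble the inner cell mass of the blastocyst, and under FGF signalling they pass through a formative state towards primed pluripotency while they keep Oct4 (Pou5f1) and Sox2. The 7 genes act downstream of, or beside, these factors. Dppa2 and Dppa4 encode SAP-domain proteins that form a complex on chromatin, Utf1 encodes a chromatin-associated protein, Dppa5a and L1td1 encode RNA-binding proteins, Gdf3 encodes a TGF-beta family ligand, and Fbxo15 encodes an F-box protein.

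Between 24 h and 48 h, 5 of the 7 genes rose (Utf1, Dppa4, Dppa2, L1td1 and Gdf3) and 2 fell (Dppa5a and Fbxo15), all by less than 2-fold. All 7 passed the filter on low counts and all 7 were called changed by the quasi-likelihood test of edgeR at an adjusted p under 0.05, as were 62.8% of the 14889 genes tested. Of all tested genes 30.9% were called higher at 48 h and 31.9% lower, which is 4600 and 4745. Scaling by library size alone gave 3779 and 5694. The libraries of the 2 times did not overlap for any of the 7 genes, as was the case for 66.9% of tested genes. The median log2 fold change was 0.25 for the 7 genes and -0.01 for all tested genes, and the median size of the change was 0.37 against 0.26. A change of at least 2-fold was fitted for 11.4% of tested genes and for 0 of these 7. When the test was made against a 1.5-fold change in place of no change, Dppa5a alone of the 7 was called.

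**Figure D1:**
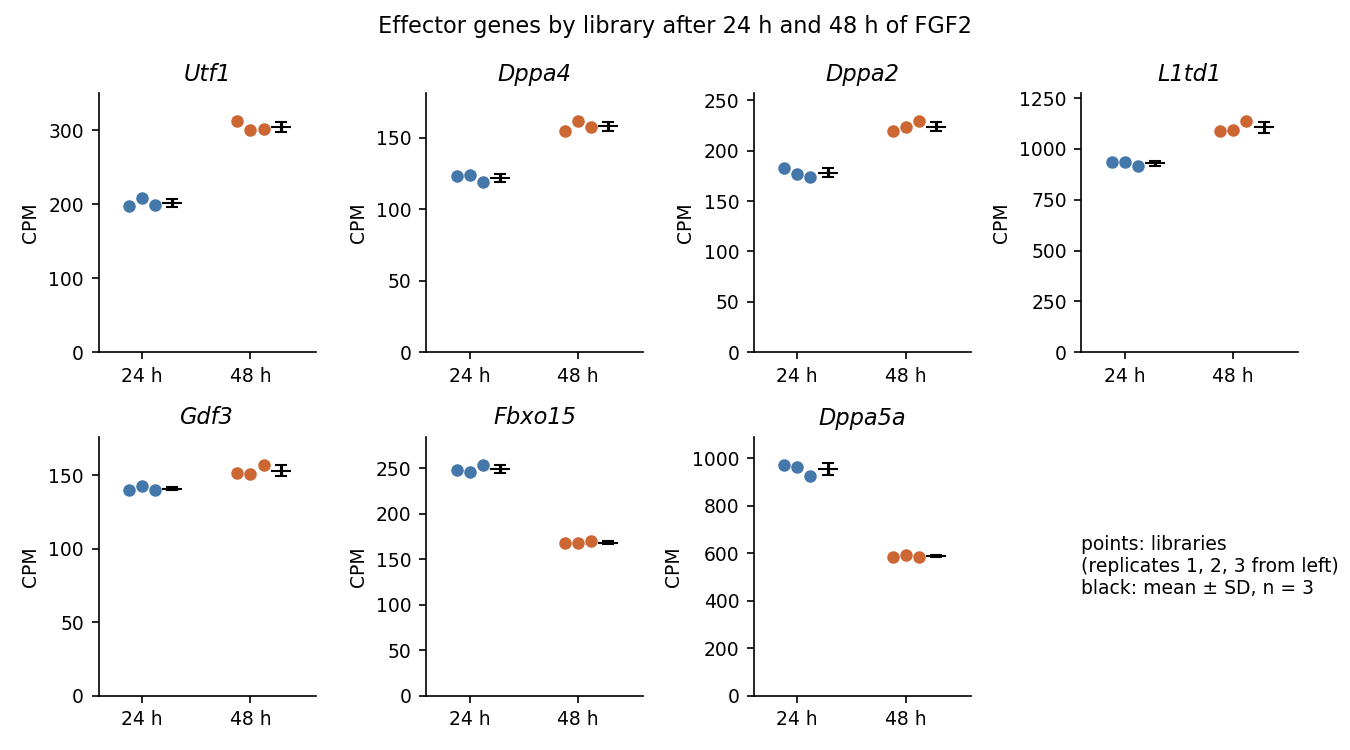
Counts scaled to a common library size (CPM, vertical axes from 0) of the 7 genes in each library after 24 h (blue) and 48 h (orange) of FGF2, with the mean ± SD of 3 libraries in black. In each panel the 3 libraries of one time lie apart from the 3 of the other, higher at 48 h for Utf1, Dppa4, Dppa2, L1td1 and Gdf3 and higher at 24 h for Fbxo15 and Dppa5a.

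The libraries held between 19574969 and 23133148 estimated counts, and the 7 genes between 2460 and 25195 counts in a library. Mitochondrial transcripts took 3.08% to 3.19% of counts at 24 h and 2.76% to 2.94% at 48 h, and the part of this difference in the results was not tested. All 7 defining markers of embryonic stem cells were tested, with a summed level of 3495 to 3543 CPM at 24 h and 3388 to 3430 CPM at 48 h. The sum hides opposite changes, as 4 of these markers rose and 3 fell. Lin28a had a log2 fold change of 1.55 and Nanog of -1.99. Markers of other cells were low: 8 fibroblast genes summed to 2.64 to 3.35 CPM at 24 h and 1.47 to 2.44 CPM at 48 h (Postn and S100a4 at 0 in every library), with 1 of 2 tested genes lower (Col1a1, log2 fold change -1.76, adjusted p = 0.000654). The 8 primitive endoderm genes summed to 9.16 to 10.7 CPM and 5.76 to 6.32 CPM, with 1 of 3 tested genes lower, and the 7 trophoblast genes to 0.601 to 1.44 CPM and 0.947 to 1.51 CPM (Prl3d1 and Tpbpa at 0). The 7 neural genes summed to between 29.4 and 30.2 CPM at 24 h and between 75.1 and 79.2 CPM at 48 h, with 3 of 4 tested genes higher. The part of any of these markers in the values below was not tested. In bulk RNA, fewer cells with a transcript and less of it per cell cannot be told apart.

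Dppa2 and Dppa4, the chromatin pair, rose together. The genes lie next to each other on the same strand of chromosome 16, at chr16:48303908-48319723 for Dppa2 (ENSMUSG00000072419) and chr16:48283733-48294237 for Dppa4 (ENSMUSG00000058550) in GRCm38, with 9671 bases between them. Dppa2 stood at 183, 177 and 174 CPM in the 24 h libraries and at 219.55, 223 and 229 CPM in the 48 h libraries. Dppa4 stood at 123, 124 and 119 CPM at 24 h and at 155, 161 and 157 CPM at 48 h. For both genes every 48 h library lay above every 24 h library.

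Dppa2 averaged 178 ± 4.41 CPM at 24 h and 224 ± 4.89 CPM at 48 h (SD, n = 3), and the fitted log2 difference was 0.33 (SE 0.02, adjusted p = 5.22e-09 in edgeR). Dppa4 averaged 122 ± 2.80 CPM at 24 h and 158 ± 3.36 CPM at 48 h (SD, n = 3), and the fitted log2 difference was 0.37 (SE 0.03, adjusted p = 3.83e-09 in edgeR). As folds these are 1.26 with a 95% interval of 1.21 to 1.31 for Dppa2 and 1.29 with an interval of 1.24 to 1.35 for Dppa4, and larger changes were fitted for 41.7% and 37.8% of tested genes. The ratio of Dppa2 to Dppa4 per kb of transcript was 0.897, 0.864 and 0.885 in the 24 h libraries and 0.857, 0.835 and 0.881 in the 48 h libraries. These values overlapped, and the ratio at 48 h was 0.973 times that at 24 h (two-sided exact permutation test, p = 0.2, 3 against 3 libraries). Of the 21 pairs among the 7 genes, Dppa2 and Dppa4 was the one pair whose ratio overlapped between the times. For each of the other 20 pairs the exact permutation p was 0.1, the smallest that 3 against 3 libraries can give, and 0.105 after adjustment over the 21 pairs, so none could pass. Among these, the ratios of Dppa2 and Dppa4 to L1td1 at 48 h were 1.06 and 1.09 times those at 24 h. How often such ratios overlap among all tested genes was not counted.

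Both genes share sequence with pseudogenes elsewhere in the genome. In the GENCODE M21 transcripts, 29.1% of the 50-base windows of the longest Dppa2 transcript and 35.9% of those of Dppa4 occurred in another gene, mostly Gm9788 for Dppa2 and Gm14058 for Dppa4. The counts given to such pseudogenes were between 0.829% and 1.21% of the Dppa2 count and between 2.21% and 2.73% of the Dppa4 count. With those counts added to the genes the log2 fold changes were 0.33 and 0.37. So small an addition could hardly move them. Pseudogene reads counted for Dppa2 or Dppa4 would not show in it.

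Utf1, at chr7:139943789-139945112 in GRCm38 (ENSMUSG00000047751), rose most among the 7. The gene is compact, with a longest transcript of 1227 bases in 2 exons, and its product binds promoters of developmental genes that carry both active and repressive histone marks. The 24 h libraries held 197, 208 and 199 CPM and the 48 h libraries 312, 300.3 and 302 CPM. The lowest 48 h library was well above the highest 24 h library. It averaged 202 ± 5.98 CPM at 24 h and 305 ± 6.52 CPM at 48 h (SD, n = 3), and the fitted log2 difference was 0.60 (SE 0.02, adjusted p = 1.88e-12 in edgeR), or 1.51-fold with a 95% interval of 1.46 to 1.57. Larger changes were fitted for 23.3% of tested genes. None of the 50-base windows of its transcript occurred in another gene, and its counts were whole numbers in every library.

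L1td1, which encodes an RNA-binding protein derived from the first open reading frame of a LINE-1 element, rose by less from a higher level. It lies at chr4:98726734-98738480 (ENSMUSG00000087166). The values were 937, 934 and 916 CPM at 24 h and 1089.5, 1092 and 1136 CPM at 48 h. Again the times did not overlap. It averaged 929 ± 11.5 CPM at 24 h and 1106 ± 26.4 CPM at 48 h (SD, n = 3), and the fitted log2 difference was 0.25 (SE 0.02, adjusted p = 2.82e-09 in edgeR), or 1.19-fold with a 95% interval of 1.16 to 1.22. A larger change was fitted for 51.8% of tested genes.

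The sequences upstream of these 2 rising genes are shown for their CpG dinucleotides, the sites of DNA methylation, which was not measured here. They were the only 2 members found among the RefSeq promoters used. The RefSeq starts lie 67 bases (Utf1) and 20 bases (L1td1) inside the genes as GENCODE M21 places them. The RefSeq upstream sequence (GRCm38.p6) was therefore shortened to 183 bases for each gene. These end at the GENCODE start of Utf1 and 47 bases before that of L1td1. They lie on the plus strand at chr7:139943606-139943788 for Utf1 and chr4:98726504-98726686 for L1td1, written 5′ to 3′ with CpG dinucleotides in capitals.
Utf1: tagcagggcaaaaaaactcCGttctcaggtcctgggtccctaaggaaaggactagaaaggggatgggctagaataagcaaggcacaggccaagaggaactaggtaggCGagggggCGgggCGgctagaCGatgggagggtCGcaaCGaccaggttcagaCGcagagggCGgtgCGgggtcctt
L1td1: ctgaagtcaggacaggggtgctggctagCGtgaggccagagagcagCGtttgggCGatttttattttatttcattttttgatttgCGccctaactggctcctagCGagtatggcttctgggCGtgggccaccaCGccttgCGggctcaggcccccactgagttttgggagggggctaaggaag
The Utf1 window held 10 CpG dinucleotides at 59.6% G and C, and the L1td1 window 8 at 56.3%. Among the same stretch of 32851 promoters in the RefSeq table the median was 4 CpG, with fewer than Utf1 in 74.1% and fewer than L1td1 in 68.3%. The GC box letters GGGCGG, searched on both strands, occurred 3 times in the Utf1 window, beginning at positions -71, -66 and -18 from the GENCODE start, of which the first 2 share 1 base, and 0 times in the L1td1 window. Of all the windows 21.5% held at least 1. The octamer ATGCAAAT bound by Oct4, the E-box CACGTG and the letters GCGGGAA, also searched on both strands, occurred in neither window. Of all windows 1.17%, 3.78% and 2.65% held them. A composite SOX-OCT pattern, searched likewise, occurred in 0 of the 32851 windows, so its absence here is uninformative. Sequence outside the 183 bases was not searched.

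Dppa5a fell most. The gene, at chr9:78367052-78368177 on the minus strand (ENSMUSG00000060461), encodes a small KH-domain protein that binds RNA, from a transcript of 619 bases in 3 exons. The 24 h libraries stood at 973, 964 and 925 CPM and the 48 h libraries at 586, 592 and 584 CPM. All 3 libraries at 48 h were far below the lowest at 24 h. It averaged 954 ± 25.4 CPM at 24 h and 587 ± 4.52 CPM at 48 h (SD, n = 3), and the fitted log2 difference was -0.70 (SE 0.02, adjusted p = 9.86e-15 in edgeR). The level at 48 h was 0.616 times that at 24 h, with a 95% interval of 0.599 to 0.633. A larger change was fitted for 19.1% of tested genes. Against a 1.5-fold change the adjusted p was 2.24e-05. Of the 50-base windows of its transcript 38.6% occurred in another gene. The 6 pseudogenes that share at least 2% of the windows held at most 0.0586% of its count, and with them added the log2 fold change was again -0.70. Pseudogene reads counted for Dppa5a would not show in this sum. The protein-coding gene Pigp, which shares 12.3% of the windows, held 183 to 267 counts in a library against at least 12726 for Dppa5a, and was not added.

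Fbxo15, an F-box protein gene long used as a reporter of the pluripotent state, also fell. It spans chr18:84934782-84981473 (ENSMUSG00000034391). The values were 248, 246 and 254 CPM at 24 h and 168, 168 and 169.8 CPM at 48 h, without overlap. It averaged 249 ± 4.08 CPM at 24 h and 168 ± 1.25 CPM at 48 h (SD, n = 3), and the fitted log2 difference was -0.57 (SE 0.02, adjusted p = 9.3e-13 in edgeR). The level at 48 h was 0.675 times that at 24 h, with a 95% interval of 0.654 to 0.697, and 24.9% of tested genes changed by more. The ratio of Dppa5a to Fbxo15, the 2 genes that fell, was 0.912 times as high at 48 h as at 24 h.

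Gdf3 changed least. This ligand gene, at chr6:122605403-122610087 on the minus strand (ENSMUSG00000030117), stood at 140.3, 142 and 140.2 CPM at 24 h and at 152, 151 and 157 CPM at 48 h. The gap between the times was 8.26 CPM, from the highest 24 h to the lowest 48 h library. It averaged 141 ± 1.298 CPM at 24 h and 153 ± 3.52 CPM at 48 h (SD, n = 3), and the fitted log2 difference was 0.12 (SE 0.03, adjusted p = 0.000638 in edgeR), or 1.09-fold with a 95% interval of 1.047 to 1.128. Larger changes were fitted for 75.1% of tested genes. Scaling by library size alone moved the median of all tested genes to -0.07 and the log2 fold change of Gdf3 to 0.06 (adjusted p = 0.0482).

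**Figure D2:**
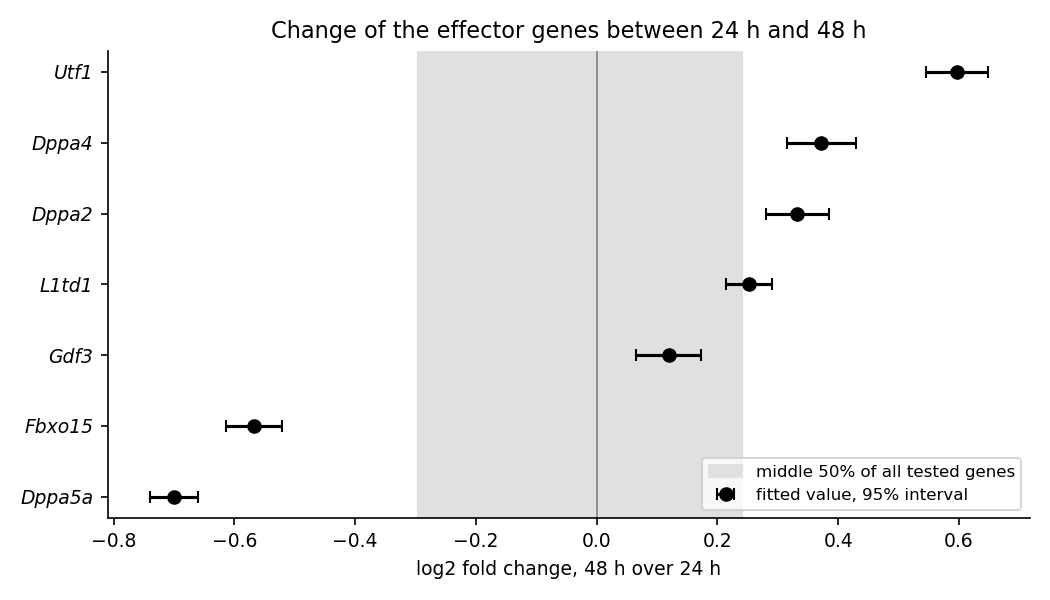
Fitted log2 fold change, 48 h over 24 h, of each of the 7 genes (points) with its 95% interval (bars), against the interquartile range of all tested genes, from -0.30 to 0.24 (grey). Gdf3 lies inside the grey band, L1td1 at its edge, and the other 5 genes outside it.

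The opposite movements left the summed level of the 7 genes nearly level, at 2775 ± 41.5 CPM at 24 h and 2701 ± 29.7 CPM at 48 h (SD, n = 3), and the ranges of 2727 to 2802 and 2681 to 2736 overlapped. Within each time the 7 genes were steady between replicates, with a coefficient of variation of 0.921% to 2.96% at 24 h and of 0.744% to 2.38% at 48 h.

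Levels were compared between genes as CPM per kb of the longest GENCODE M21 transcript. At 24 h Dppa5a was highest at 1541 ± 41 (SD, n = 3), 4.88 times L1td1, and it was still highest at 48 h at 949 ± 7.31, then 2.52 times L1td1. L1td1 followed at 316 ± 3.92 and 376 ± 8.96, and Utf1 at 164 ± 4.87 and 248 ± 5.32. Fbxo15 went from rank 4 at 98.5 ± 1.61 to rank 7 at 66.5 ± 0.495, below Gdf3 at 72.1 ± 1.66. Its longest transcript has 2532 bases, but its longest protein-coding transcript has 1910. By that shorter length Fbxo15 would lie above Gdf3 at 48 h, whereas by coding length it also ranked 7. Dppa4 and Dppa2 were close to each other, at 82.5 ± 1.89 and 72.7 ± 1.80 at 24 h and at 107 ± 2.27 and 91.5 ± 2.00 at 48 h. By the longest transcript no 2 neighbours in the order overlapped between their libraries, but the places of Dppa2, Dppa4 and Fbxo15 depend on the length used. Per kb of coding length, Dppa2 stood above Dppa4 at both times, at 197 ± 4.89 against 137 ± 3.15 at 24 h, and above Fbxo15 at 24 h. By that length the 24 h libraries of Utf1, at 198 ± 5.88, overlapped those of Dppa2.

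**Figure D3:**
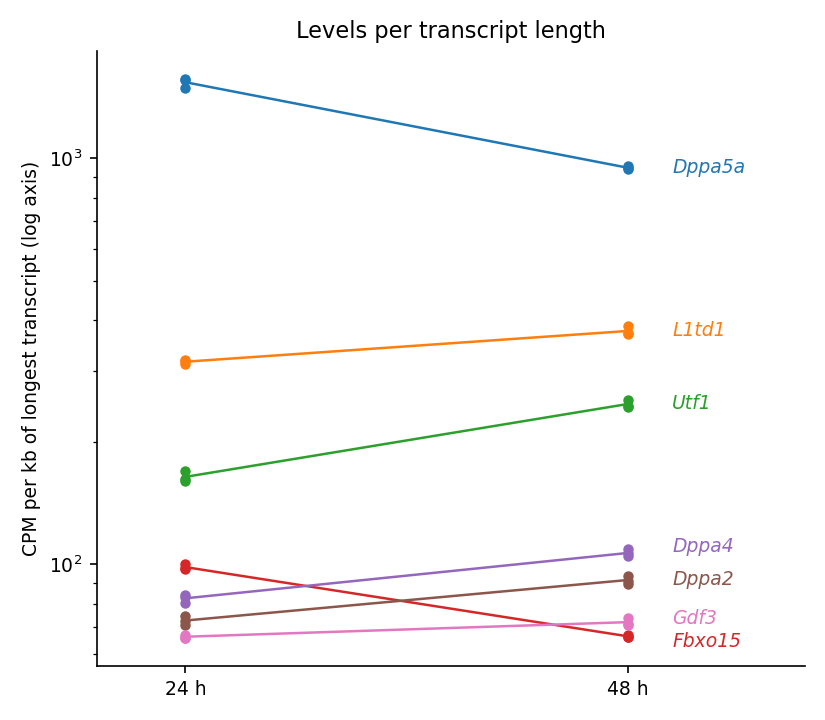
Level of each of the 7 genes as CPM per kb of its longest transcript (log axis) in each library (points), with lines joining the means at 24 h and 48 h. Dppa5a is highest at both times, and by this length Fbxo15 crosses below Dppa4, Dppa2 and Gdf3.

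The genes next to each member were then taken by position, within 150 kb in GRCm38. This window was chosen after the fold changes were known. Of all tested genes 30.9% were called higher and 31.9% lower. Gdf3 lies in a cluster with other pluripotency genes, and its neighbours moved in both directions: of 10 tested, 3 rose and 5 fell. Those that fell include the processed pseudogenes Gm10420 and Gm10224, at 2.87 and 1.31 CPM at 24 h with fractional counts. Nanog, a core factor 97402 bases from Gdf3, stood at 695 ± 24.6 CPM at 24 h and 174 ± 6.47 CPM at 48 h (SD, n = 3), a log2 difference of -1.99, while Gdf3 rose. Slc2a3, a glucose transporter gene on the far side of Nanog, had a log2 fold change of -0.60. Dppa3, a maternal and germ cell factor 16323 bases from Gdf3, rose from 2.40 ± 0.473 to 3.68 ± 0.266 CPM with fractional counts, and Apobec1, a cytidine deaminase gene 2959 bases away, had a log2 fold change of -0.28.

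Around Dppa5a 1 of 6 tested neighbours rose and 4 fell, where 30.9% and 31.9% of all tested genes did. The 4 include Eef1a1 (log2 fold change -0.07) and the microRNA entry Gm26377, which lies inside Eef1a1, both with fractional counts. Ooep, a KH-domain gene of the oocyte that lies 7932 bases from Dppa5a, had a log2 fold change of -0.18 (adjusted p = 0.00701), against -0.70 for Dppa5a. Beyond Dppa2, Morc1, a silencing factor of the germ line, fell by 0.21 on the log2 scale, with 168 ± 2.20 CPM at 24 h and 146 ± 2.14 CPM at 48 h (adjusted p = 1.19e-06), opposite to the pair. Timm21, a mitochondrial import gene within the span of Fbxo15, rose (log2 fold change 0.69, adjusted p = 1.43e-06) while Fbxo15 fell. Utf1 had Kndc1 at 2252 bases (log2 fold change -0.43), and L1td1 lay between Patj (0.61) and Kank4 (-1.43). None of the exons of the 7 genes overlaps an exon of another gene on either strand in GENCODE M21.

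**Figure D4:**
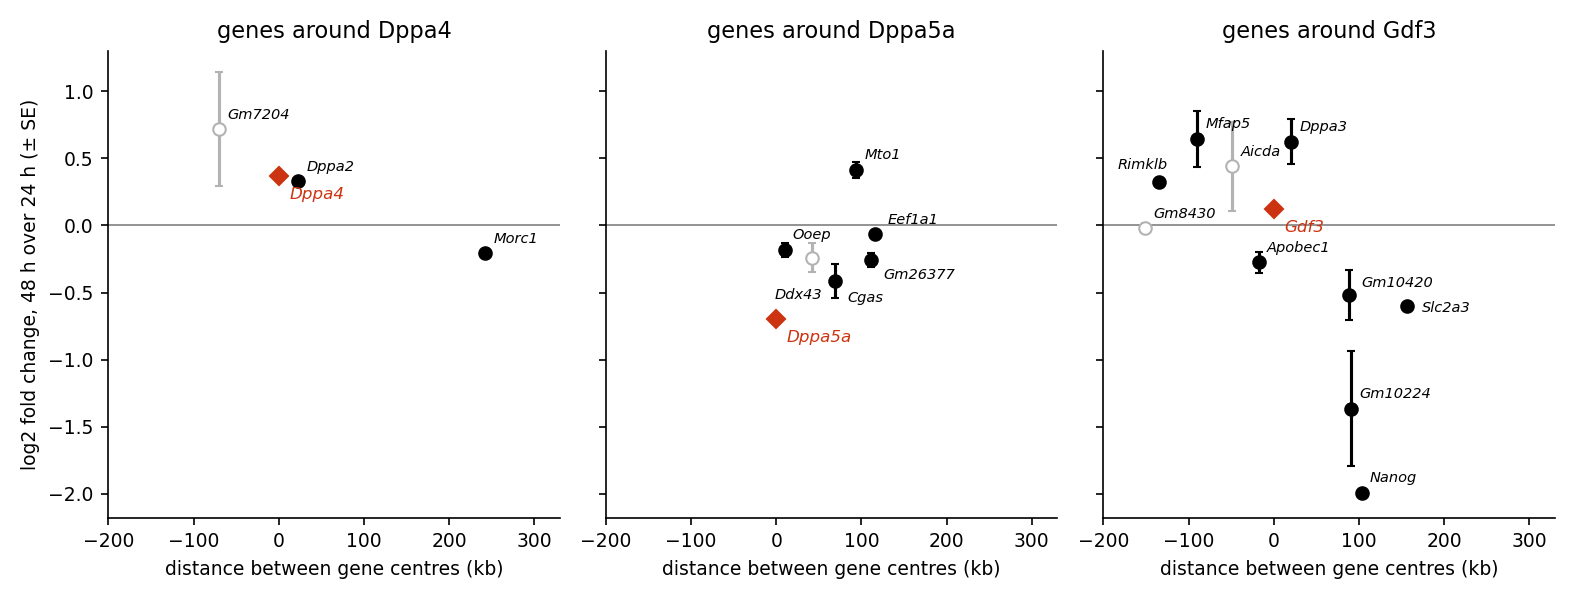
Fitted log2 fold change, 48 h over 24 h (± standard error), of the tested genes near Dppa4, Dppa5a and Gdf3 (red diamonds) against the distance between gene centres in kb, with filled points for an adjusted p under 0.05 and open points otherwise. Dppa2 sits beside Dppa4 at nearly the same value, whereas Nanog near Gdf3 lies at -1.99.

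Genes with the most similar profile were found among protein-coding genes with a mean CPM within 2-fold, by the root mean square distance of centred log2 CPM over the 6 libraries. Dppa2 was nearest to Ptprk (0.0103) and Nfx1 (0.0115), and Dppa4 to Ttll4 (0.00976) and Xpo7 (0.0166). Utf1 was nearest to Hsph1 (0.0179) and Mapk6 (0.0195). For L1td1 they were Rif1 (0.0164) and Tpr (0.0165), and for Gdf3 Alyref (0.0103) and Fbl (0.0106). Fbxo15 was nearest to Asah1 (0.0133) and Idh2 (0.0191), and Dppa5a to Fn1 (0.0287) and Zfp57 (0.0503). Candidates numbered 2592 for Dppa4 and 366 for Dppa5a, so distances are not comparable between members.

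Genes that share a pathway or a class with the 7 were counted in the same test, which called 30.9% of all tested genes higher and 31.9% lower. Of 20 other transcripts associated with embryonic stem cells, all tested, 9 rose and 11 fell (median log2 difference -0.30, against -0.01 for all tested genes). Their changes spanned a wider range than those of the 7 genes. Jam2, an adhesion molecule gene, fell by 2.71 on the log2 scale (196 ± 13.8 CPM at 24 h, 30.02 ± 1.58 at 48 h, SD, n = 3), and Zfp42, the naive marker Rex1, by 1.06 (1034 ± 9.10 and 495 ± 23.7 CPM). Lin28a, an RNA-binding regulator of let-7, rose by 1.55 on this scale, Phc1, a Polycomb subunit, by 0.76, and Trim71, a translational repressor, by 0.42. Of 12 core and state factors 10 fell and 2 rose, with a median of -1.48. Esrrb and Klf4, naive factors, had log2 fold changes of -1.47 and -2.17, whereas Pou5f1 had -0.07 and Sox2 -0.37. Otx2 and Pou3f1, factors of the formative state, rose by 1.74 and 3.79.

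Dppa2 and Dppa4 are known to activate Dux and Zscan4, genes of the 2-cell embryo that a few stem cells transcribe. Of 16 such genes, all tested, 8 rose, 1 fell and 7 were not called (median 0.24), where 30.9% of all tested genes rose and 31.9% fell. A part of Dppa2 or Dppa4 in these changes was not tested. The 6 Zscan4 genes all rose, by between 0.17 for Zscan4a and 0.80 for Zscan4b. Zscan4f went from 94.5 ± 7.14 to 146 ± 3.05 CPM (SD, n = 3). Duxf3, the Dux gene, stood at 2.36 ± 0.947 and 2.62 ± 0.113 CPM and was not called (log2 fold change 0.15, adjusted p = 0.597), and it had -0.12 without replicate 2 of 24 h. Apart from Tmem92, all genes of this list had fractional counts, so the division of reads between similar copies is uncertain. Usp17lb, the 1 gene that fell, was not called in DESeq2 (adjusted p = 0.0806), nor when replicate 2 of 48 h was left out (0.062).

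Gdf3 signals, like Nodal, through activin receptors with the co-receptor Cripto (Tdgf1). Of the 19 genes of that pathway 17 were tested, of which 6 rose and 10 fell (median -0.24), against 30.9% and 31.9% of all tested genes. Among ligands and inhibitors, Nodal fell by 0.84 on the log2 scale (62.1 ± 2.69 CPM at 24 h, 34.6 ± 1.27 at 48 h, SD, n = 3), and the feedback inhibitor genes Lefty1 and Lefty2 had -1.69 and -3.74, both with fractional counts. The ligand gene Gdf1 rose by 3.18, from 0.294 ± 0.262 to 2.73 ± 0.920 CPM (adjusted p = 1.04e-05), with 0 counts in 1 or more libraries and exons that overlap those of Cers1 and Upf1. Tdgf1 had -0.24 and the receptor gene Acvr1b -0.95, while the receptor gene Acvr2b rose by 0.55. Pcsk6, which encodes a convertase that cleaves such ligands, had -1.28. The nuclear partner gene Foxh1 rose by 0.49 and Skil, a repressor of SMAD transcription, by 1.54, while Smad7, an inhibitor, had -1.33. Smad2 and Smad4 were at 0.12 and 0.09, and Furin at -0.20. These 3 calls depended on the setting. Smad2 was not called with library size as the only scaling (adjusted p = 0.227), in DESeq2 (0.0517), or when replicate 2 or 3 of 24 h or replicate 3 of 48 h was left out (0.13, 0.061 and 0.126). Smad4 was not called with that scaling (0.347), nor when replicate 1 of 24 h or replicate 2 of 48 h was left out (0.079 and 0.0601). Furin was not called in DESeq2 (0.101), nor when replicate 1 or 2 of 24 h or replicate 2 or 3 of 48 h was left out (0.0614, 0.0697, 0.0803 and 0.115).

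Fbxo15 as an F-box protein binds Skp1 in the SCF ubiquitin ligase. Of 12 tested SCF genes 9 were not called, 2 rose and 1 fell, where 30.9% of all tested genes rose and 31.9% fell. The median log2 fold change of the 12 was 0.01. Cul1, the scaffold, rose by 0.41 on the log2 scale (260 ± 3.12 CPM at 24 h, 345 ± 4.88 at 48 h, SD, n = 3). Skp1a was at 232 ± 1.76 and 234 ± 1.80 CPM (0.01, adjusted p = 0.6), with a change of sign to -0.05 (adjusted p = 0.0454) when library size was the only scaling. Under that scaling 6 of the 12 genes were called lower. Btrc was the other gene that rose (0.14). It was not called with that scaling (adjusted p = 0.152), in DESeq2 (0.0676), or when replicate 3 of 24 h, replicate 1 of 48 h or replicate 2 of 48 h was left out (0.0626, 0.0562 and 0.0618).

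KH-domain relatives of Dppa5a, among them Khdc3 and Ooep, were listed together with genes of the maternal complex of the oocyte, to which both belong and of which Tle6 is a member without a KH domain. Of these 8 genes 3 were tested, and all 3 fell, where 31.9% of all tested genes did. Khdc3 had a log2 difference of -2.58 (14.5 ± 1.64 CPM at 24 h, 2.41 ± 0.694 at 48 h, SD, n = 3). Tle6 had -1.23 and Ooep -0.18. The other 5 had at most 6.22 counts in a library. Of 8 DNA methylation genes 7 rose and 1 fell, with a median of 0.32, where 30.9% of all tested genes rose and 31.9% fell. Dnmt3b, a de novo methyltransferase, rose from 137 ± 10 to 1390 ± 15 CPM with fractional counts. Dnmt3l, its cofactor, rose from 213 ± 10 to 457 ± 4.76 CPM. Tet1, a dioxygenase that oxidises methylated cytosine, rose from 999.95 ± 3.42 to 1351 ± 26.4 CPM. Tet2 fell, by 0.97. The smallest increases, those of Uhrf1 (0.06) and Dnmt1 (0.10), lost their calls with library size as the only scaling (0.005 and 0.04, adjusted p = 0.832 and 0.0536). Among the listed genes named here, Trim71, Lin28a, Pou5f1, Otx2, Pou3f1, Dnmt3l, Tet2, Cul1, Btrc and Furin have exons that overlap those of an antisense gene in GENCODE M21. Whether counting used strand is not given in the sources used here. Khdc3, Otx2, Pcsk6 and Ccnf have exons that overlap those of another gene on the same strand, which for Khdc3 is Gm20509.

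**Figure D5:**
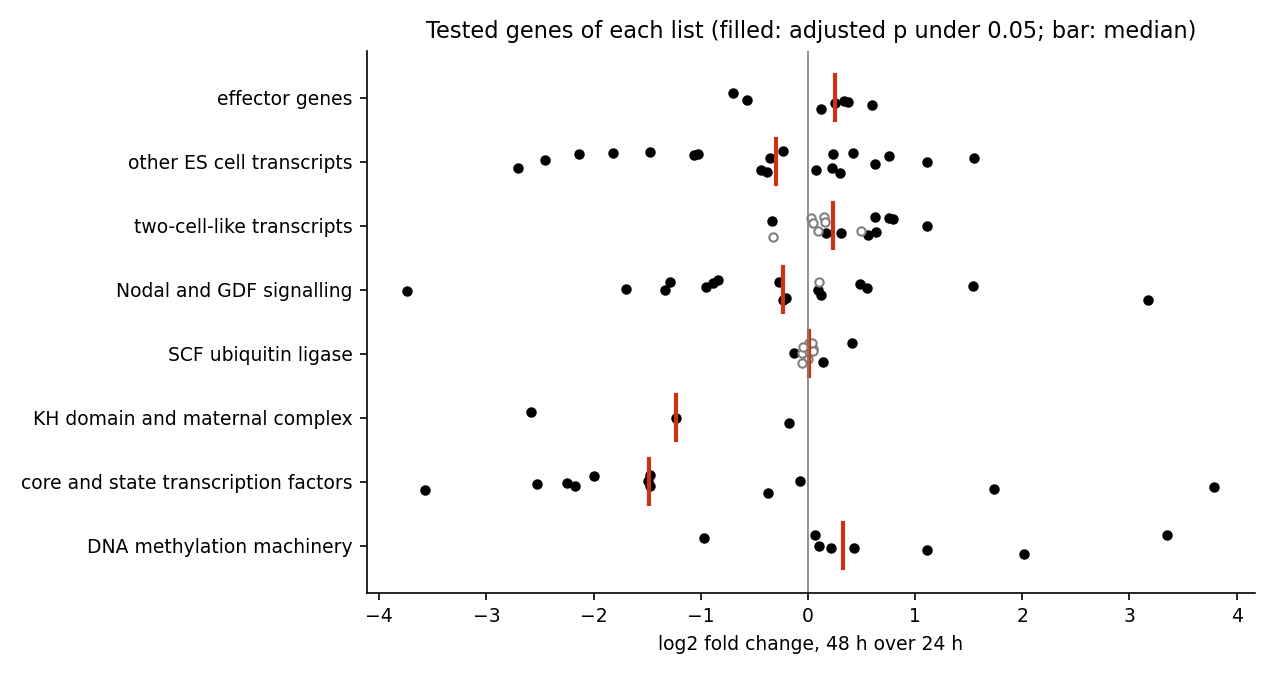
Fitted log2 fold change, 48 h over 24 h, of each tested gene in the 7 genes and in 7 related lists (filled for an adjusted p under 0.05, open otherwise), with the median as a red bar. The 7 effector genes lie between -0.70 and 0.60, while the core and state factors reach from -3.57 to 3.79.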

How the data were processed

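Messenger RNA of 6 libraries (KAPA mRNA HyperPrep, per the labels' protocols) was measured as estimated counts per gene. The authors deposited unscaled RSEM expected counts for 51912 Ensembl genes. The submitters' processing notes name cutadapt 1.9.1, STAR 2.5.2, RSEM 1.3.0 and the build GRCm38, without their order or settings. RSEM divides reads between similar genes, so counts of multi-copy genes are uncertain. Symbols, positions and lengths came from GENCODE M21 (GRCm38), which matched 51719 identifiers. 0 columns lacked a sample.

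Counts were rounded, filtered with filterByExpr (minimum count 10), scaled by TMM and compared with edgeR's quasi-likelihood test (edgeR 4.0.16, R 4.3.3; term: group), adjusted by Benjamini-Hochberg over all 14889 tested genes, with a threshold of 0.05. The standard error is the log2 fold change divided by the square root of F. CPM use the TMM-scaled library size. The test was checked on simulated counts. Replicates of a time differed by 1.816 to 2.224 chi-square per degree of freedom, more than sampling noise, and were counted separately.

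The members and lists were chosen with earlier results of these data known. Named genes are the 7 members, list genes, the 2 genes nearest in profile to each member, and neighbours by position. Alternatives were 3 other scalings, 2 other filters, DESeq2 1.42.0, limma 3.58.1 voom, unrounded counts, a replicate block, a threshold of 0.01, glmTreat against 1.5-fold and leaving out each library. Adding pseudogene counts was chosen after seeing the data. Not every listed gene is reported here.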

Additional observations from a re-analysis of the deposited data

How the results depend on the processing

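The 7 genes kept their direction in every alternative run, and their calls in all but the test against a 1.5-fold change. Outside that test the largest adjusted p was 0.0482, for Gdf3 with library size as the only scaling, and 4.43e-10 for Utf1, 2.48e-07 for Dppa4, 3.4e-07 for Dppa2, 1.29e-07 for L1td1, 4.29e-10 for Fbxo15 and 1.22e-11 for Dppa5a. Against a 1.5-fold change 1894 genes were called, 740 higher and 1154 lower, and of the 7 genes 1 was called, 0 higher and 1 lower. There the log2 fold changes of Dppa2 (0.33), Dppa4 (0.37), Utf1 (0.60), Fbxo15 (-0.57), Gdf3 (0.12) and L1td1 (0.25) had adjusted p of 1, 1, 0.671, 1, 1 and 1. The cause of the lower counts is the construction of the test, which asks for a larger change.

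Under the same test 3 other stem cell transcripts were higher and 7 lower, 1 two-cell-like gene higher and 0 lower, 2 Nodal pathway genes higher and 6 lower, 0 SCF genes higher and 0 lower, and 3 DNA methylation genes higher. The count of two-cell-like genes called lower was 2 with library size scaling, 2 with every gene tested, 0 with DESeq2 and 0 at a threshold of 0.01, and between 0 and 2 when 1 library was left out. SCF genes called higher numbered 1 with library size scaling, DESeq2 or a threshold of 0.01 and from 1 to 2 without 1 library, and those called lower 6 with library size scaling, 0 with DESeq2 or a threshold of 0.01 and from 0 to 1 without 1 library. The cause was not tested.

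Signs turned for list genes that were not called with TMM. With library size scaling these were Usp17lc (-0.032), Tmem92 (-0.016), Skp1a (-0.048), Rbx1 (-0.012), Fbxw11 (-0.027), Ccnf (-0.052) and Fbxo28 (-0.013), of which Skp1a and Ccnf were then called lower (adjusted p = 0.0454 and 0.0302). Fbxw7 had 0.0041 with RLE scaling and 0.0040 with DESeq2. When 1 library was left out the values ranged from -0.12 to 0.43 for Duxf3, from -0.0094 to 0.21 for Tcstv1, from -0.029 to 0.088 for Usp17lc, from -0.0049 to 0.13 for Tmem92, from -0.028 to 0.021 for Fbxw7, from -0.00055 to 0.060 for Fbxw11 and from -0.0093 to 0.023 for Ccnf. By coding length, Dppa2, Dppa4 and Fbxo15 ranked 4, 6 and 5 at 24 h, and Dppa2 and Dppa4 ranked 4 and 5 at 48 h.

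With the replicate block 9235 genes changed and all 7 genes kept their calls (log2 fold changes 0.60, 0.37, 0.33, 0.25, 0.12, -0.57 and -0.70). It changed no call of a list gene. Departures from the mean of each time were correlated between the libraries that carry the same number at 24 h and 48 h. The correlations were -0.0458, -0.0427 and -0.00852 for replicates 1, 2 and 3. Whether libraries of the same number share a culture was not tested. The count of changed genes was 8737 to 8904 without 1 library. Depth did not limit the 7 genes, but 5 of the 8 KH-domain and maternal genes had too few counts to test.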
